A study of Mus musculus with 4 samples.

Results

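The chemokines Cxcl9, Cxcl10 and Ccl5 were followed in single colonic monocytes and macrophages of mice on chow or a coconut-based high-fat diet (HFD). The 3 genes were chosen by name, with their response to the diet in these data already known, so their diet differences are given as a description without a test. Of the 3 listed genes, 2 (Cxcl9 and Ccl5) were among the 11820 genes of the count matrix, and Cxcl10 was not analysed here. Cxcl9 (ENSMUSG00000029417) lies on the minus strand of mouse chromosome 5 (GRCm38, chr5:92321347-92328079) and has 4 exons, and Ccl5 (ENSMUSG00000035042) lies on the minus strand of chromosome 11 (chr11:83525778-83530518) and has 3 exons. Both are protein-coding, and no other annotated gene overlaps either of them.

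All 4 mice were male C57/Bl6N animals that were 6 to 7 weeks old and specific pathogen-free. In all, 2 diets were compared after 1 week, a normal chow diet (mice chow 9 and chow 11, n = 2) and the coconut-based HFD with 60% fat (mice HFD 1 and HFD 3, n = 2). Live CD45+ cells of the lamina propria that lacked lineage markers, carried CD11b but not CD24, and carried Ly6C or CD64 were sorted, and each mouse was loaded into its own well of a droplet device that reads the 3' end of transcripts. Each transcript molecule carries a unique molecular identifier (UMI), so values are counts of molecules. The number of mice is small, and means over the 2 mice of a diet carry the spread between them (SD, n = 2). Differences from statistical fits carry the SE of the fit instead.

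CXCL9 and CXCL10 are ligands of CXCR3, a receptor on activated T cells and NK cells, and CCL5 is a ligand of CCR1 and CCR3, which T cells, monocytes and other leukocytes carry. Macrophages make CXCL9 mainly upon interferon-gamma, whereas CCL5 is also driven by NF-kB and by the interferon regulatory factors. In the colon, Ly6C-positive monocytes enter from the blood, gain MHC class II, lose Ly6C and become resident macrophages that make the complement protein C1q.

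The 250 bases before the annotated start of Cxcl9 are shown because interferon-induced genes were among those whose levels were most like that of Cxcl9 in these cells. They were taken from RefSeq (GRCm38.p6, chr5:92328080-92328329, minus strand, read 5′ to 3′), and the capitals mark a match to the core of the interferon-stimulated response element (GAAANNGAA), which interferon-activated STAT and IRF factors can bind.
Cxcl9: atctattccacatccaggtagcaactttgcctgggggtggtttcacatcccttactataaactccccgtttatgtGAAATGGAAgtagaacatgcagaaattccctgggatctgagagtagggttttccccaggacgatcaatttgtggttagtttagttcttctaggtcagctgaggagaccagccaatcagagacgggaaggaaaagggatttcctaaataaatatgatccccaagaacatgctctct
The match lies 175 to 167 bases before the start. On both strands, 7.13% of the 32851 promoters of this length held such a match. No match to the gamma-activated sequence (TTCNNNGAA, in 7.02% of promoters) or to the kappaB consensus (in 7.25%) was in this window. These are matches of letters, and binding was not measured.

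The matrix held 5420 cells, with 904 from chow 9, 2002 from chow 11, 966 from HFD 1 and 1548 from HFD 3, and total UMIs of 3824228 to 7947893 per mouse. The median depth was 3926, 3747, 3803.5 and 3266 UMIs per cell. Shares of cells are therefore given after each cell was thinned to 2000 UMIs, which left out 111, 356, 190 and 325 shallower cells, with the unthinned share beside them. Libraries shared few cell barcodes (23 by a pair of libraries, 6 of them within 1 diet). Cells were placed in 5 classes by the UMIs of 7 genes, none of them a chemokine: C1q-high cells (C1qa, C1qb and C1qc above 23.8 per 10000 UMIs) and, among the rest, Ly6c2-positive or Ly6c2-negative cells with high or low MHC II (H2-Aa, H2-Ab1 and H2-Eb1, threshold 150.4 per 10000 UMIs). These classes are ranges along continuous levels, with 3.17% of all cells within 0.5 log2 units of the C1q threshold and 10.8% of the C1q-low cells within that distance of the MHC II threshold. Of the cells, 84.5% and 92.4% were C1q-high in chow 9 and chow 11, against 47.4% and 42.2% in HFD 1 and HFD 3. Every cell of the matrix, with or without a UMI of Cxcl9 or Ccl5, held UMIs of the macrophage and monocyte markers. One of these, Lyz2, was found in 100%, 100%, 99.9% and 99.9% of cells in chow 9, chow 11, HFD 1 and HFD 3. Holding a marker of this list therefore does not tell cell types apart.

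Cxcl9, the CXCR3 ligand, was close to silent on chow and abundant on HFD. Levels are UMIs of a gene per 1000000 UMIs of the cells (CPM). Cxcl9 stood at 9.39 CPM in chow 9 and 25.3 in chow 11, against 829 in HFD 1 and 851 in HFD 3. The HFD mice were close to each other and both far above the chow mice. The mean was 17.3 ± 11.2 (SD, n = 2) on chow and 839.8 ± 15.8 (SD, n = 2) on HFD, a ratio of 48.4, or 5.60 on the log2 scale.

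Ccl5 followed the same order of diets at a smaller ratio. Its level was 21.4 CPM in chow 9, 29.9 in chow 11, 434 in HFD 1 and 545 in HFD 3. Both HFD mice stood above both chow mice, and the share of all genes with such a separation is not given here. The mean was 25.7 ± 6.04 (SD, n = 2) on chow and 489.6 ± 78.5 (SD, n = 2) on HFD, a ratio of 19.1, or 4.25 on the log2 scale. Whether the ratios of the 2 genes differed was not tested.

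**Figure D1:**
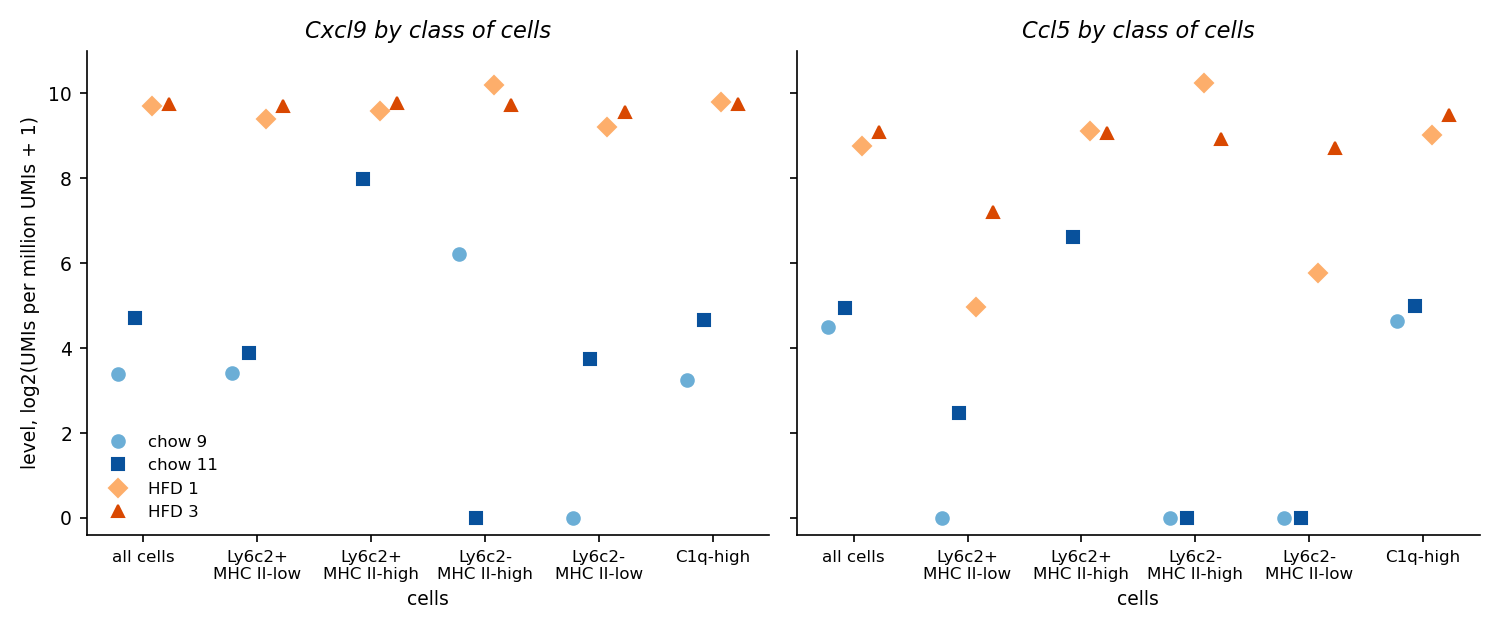
Level of Cxcl9 and Ccl5 on the vertical axis, as log2(CPM + 1), over all cells and in each of the 5 classes, with 1 point per mouse and class of at least 10 cells. The HFD points of Cxcl9 lie at like levels in all classes (588 to 1161 CPM), whereas those of Ccl5 run from 30.3 in Ly6c2-positive MHC II-low cells of HFD 1 to 1200.5 in its Ly6c2-negative MHC II-high cells.

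More cells held each gene on HFD, and the cells with Cxcl9 also held more molecules of it. Cxcl9 was found in 1.51% and 1.88% of thinned cells in chow 9 and chow 11, and in 34.3% and 42.9% in HFD 1 and HFD 3. The mean share was 1.70 ± 0.262% (SD, n = 2) on chow and 38.6 ± 6.12% (SD, n = 2) on HFD, a ratio of 22.7. Without thinning the shares were 2.77%, 2.997%, 42.1% and 49.9%, with 95% Wilson intervals of 1.88 to 4.05%, 2.34 to 3.84%, 39.1 to 45.3% and 47.4 to 52.4%. These intervals, and the limits given for counts of 0, cover counting error only. Per producing cell, there were 1.44, 3.35, 7.79 and 6.15 UMIs of Cxcl9 in chow 9, chow 11, HFD 1 and HFD 3.

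For Ccl5 the thinned shares were 1.13% and 2.37% in the chow mice and 19.2% and 27.0% in the HFD mice. The mean was 1.75 ± 0.873% (SD, n = 2) on chow and 23.1 ± 5.50% (SD, n = 2) on HFD, a ratio of 13.2. The unthinned shares were 1.55%, 3.95%, 25.7% and 32.9%. The UMIs per producing cell did not separate the diets as clearly, with 5.86 in chow 9 and 3.01 in chow 11 against 6.69 in HFD 1 and 5.98 in HFD 3. The median producing cell held 4 UMIs of Ccl5 in chow 9, 1 in chow 11 and 2 in each HFD mouse, so the chow mice lay on both sides of the HFD mice. On the means over mice, the UMIs per producing cell on HFD were 1.43 times those on chow for Ccl5 and 2.91 times for Cxcl9. Cells with at least 100 UMIs of a list of B and plasma cell markers numbered 5, 13, 1 and 1. Of these, 0, 0, 1 and 1 held Cxcl9 (1 UMI in HFD 1 and 2 in HFD 3), and 1, 1, 0 and 0 held Ccl5. They were too few to give a background share from free RNA in the same wells.

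A small number of cells carried much of each chemokine. Cells with at least 10 UMIs of Cxcl9 numbered 0 in chow 9, 6 in chow 11, 104 in HFD 1 and 158 in HFD 3, which is up to 0.300% of cells on chow and 10.8% and 10.2% on HFD. The cell with the most Cxcl9 held 5, 28, 83 and 65 UMIs. For Ccl5, 3, 4, 40 and 82 cells held at least 10 UMIs, and the fullest cell held 19, 33, 111 and 107. Ccl5 was the more unevenly spread: the tenth of producing cells with the most UMIs held 60.7% of Ccl5 UMIs in HFD 1 and 52.2% in HFD 3, against 44.8% and 41.7% for Cxcl9. On chow, 76.0% and 56.7% of the cells with Cxcl9 held a single UMI of it, against 31.7% and 30.0% on HFD. For Ccl5 the shares with a single UMI were 28.6% in chow 9, 58.2% in chow 11, 45.6% in HFD 1 and 40.5% in HFD 3, with no separation of the diets.

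**Figure D2:**
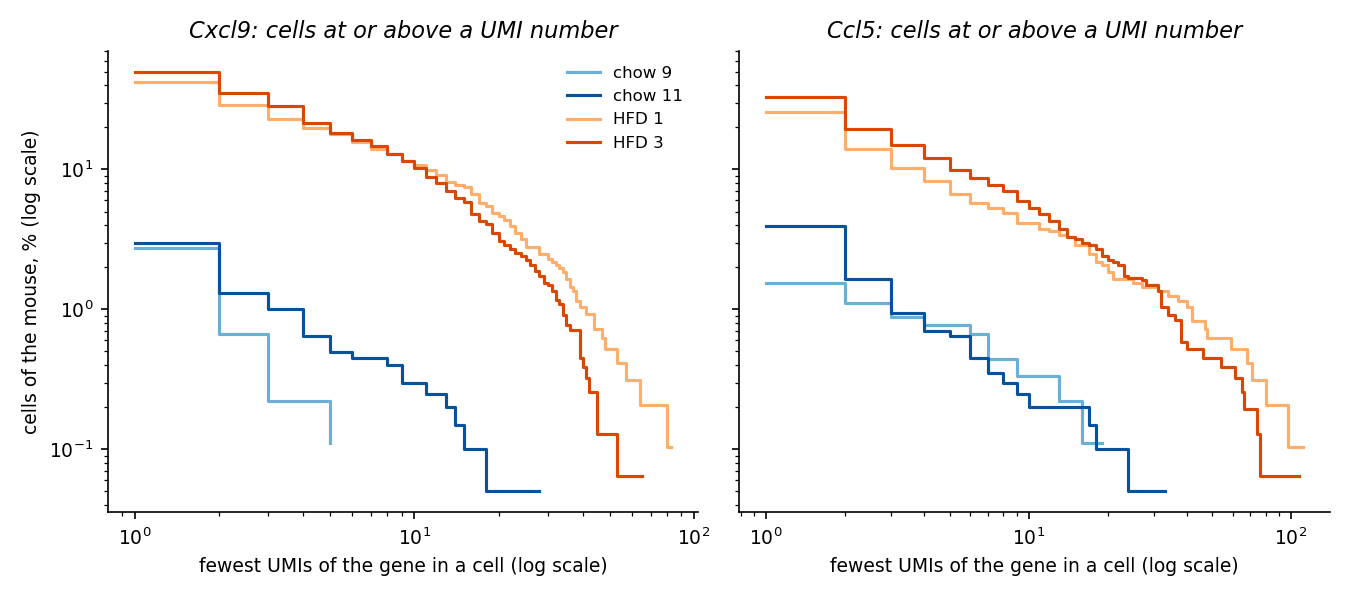
Share of each mouse's cells (vertical axis, %, log scale) that held at least the number of UMIs of the gene given on the horizontal axis (log scale), with 1 line per mouse. Both HFD lines of each gene run above both chow lines, and at 10 UMIs of Cxcl9 they stand at 10.8% and 10.2% against 0.300% in chow 11.

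By class of cells, Cxcl9 on HFD was high from the monocyte end to the resident end. In Ly6c2-positive MHC II-low cells, which carry the markers of newly arrived monocytes, it reached 670.4 CPM in HFD 1 and 836 in HFD 3. The Ly6c2-positive MHC II-high cells held 761 and 876, the Ly6c2-negative MHC II-high cells 1161 and 848, and the C1q-high cells 886 and 852. These levels overlapped between classes, and the order of the classes was not the same in the 2 HFD mice. Ly6c2-negative MHC II-low cells, of which there were 39 and 70, held 588 and 755. In chow mice no class with at least 10 cells exceeded 253. This was reached in chow 11 by 19 Ly6c2-positive MHC II-high cells with 13 UMIs, 12 of them in 1 cell.

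Ccl5 on HFD differed by class. It was lowest in Ly6c2-positive MHC II-low cells, at 30.3 CPM in HFD 1 and 147 in HFD 3, and reached 552 and 533 in Ly6c2-positive MHC II-high cells. Ly6c2-negative MHC II-high cells held 1200.5 and 484, and C1q-high cells 521 and 712. The Ly6c2-negative MHC II-low cells held 53.4 (4 UMIs) and 415 (61 UMIs), the second lowest level in both mice. On chow, C1q-high cells held 100% of Ccl5 UMIs in chow 9 and 97.5% in chow 11, beside 89.4% and 94.8% of all UMIs. The 24 and 27 Ly6c2-negative MHC II-high cells of the chow mice held 0 UMIs of Ccl5, where 3 counts over both mice would be 22.8 CPM. In HFD 1, 3 cells held 56.0% of the Ccl5 UMIs of that class.

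The make-up of the sorted cells changed with the diet as well. When each mouse's class levels were averaged with the same class shares in all mice, Cxcl9 stood at 11.1, 39.6, 854 and 849 CPM in chow 9, chow 11, HFD 1 and HFD 3. For Ccl5 the values were 16.9, 30.2, 480.1 and 601. The HFD mice stayed above the chow mice for both genes. Chow 11 stood at 39.6 for Cxcl9 against 25.3 without this step, and the ratio between the diet means was smaller for Cxcl9 and larger for Ccl5 than over all cells. C1q-high cells still gave 51.9% and 50.3% of Cxcl9 UMIs on HFD, close to their 48.6% and 50.2% of all UMIs, and 58.3% and 65.6% of those of Ccl5. Ly6c2-positive MHC II-low cells gave 23.8% and 17.9% of Cxcl9 but 2.05% and 4.89% of Ccl5.

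The classes were then compared within mice, a contrast from which the diet difference drops out and whose classes used no chemokine. Counts were summed per mouse and class and tested with edgeR's quasi-likelihood test with the mouse as a block, at a false discovery rate (FDR, Benjamini-Hochberg) of 1%. All classes shared 1 estimate of the spread, so the p-values do not measure the spread of a single contrast between mice. Chow 9 had 3 Ly6c2-positive MHC II-high cells, below the minimum of 10, so the comparisons with that class rested on 3 mice. Ccl5 was higher in Ly6c2-positive MHC II-high than in MHC II-low cells by 2.78 on the log2 scale (SE 0.36, edgeR adjusted p = 8.70e-09), and higher in 3 of 3 mice. In the same comparison 2.53% of 8810 genes passed (1.18% higher and 1.35% lower), the MHC II genes that define the classes among those tested. The ratio was 18.2 in HFD 1 and 3.63 in HFD 3. It was 21.3 in chow 11, where it rested on 5 UMIs, all in 1 cell, against 1.

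Cxcl9 differed by 0.39 on the log2 scale between the same classes (SE 0.28, edgeR adjusted p = 0.663), with ratios of 1.13 and 1.05 in the HFD mice. In chow 11 the Cxcl9 ratio was 18.4, on 13 UMIs against 3, close to the ratio of Ccl5 in that mouse. Of the 13 UMIs 12 were in 1 cell, so in chow 11 the ratios of both genes rested largely on single cells. The Cxcl9 contrast was 1.84 with DESeq2 (adjusted p = 0.337), not past 1%. It was 3.77 in chow mice alone, a fit with chow 11 as the only mouse in the MHC II-high class. The difference between the contrasts of the 2 genes was not tested. For Ccl5 the call did not hold with DESeq2 (3.64, adjusted p = 0.0225). Leaving out 1 mouse at a time gave 2.13 (without HFD 1) to 4.32 (without HFD 3), both called. The lowest estimate was 1.88, with Ly6c2-positive set at 2 UMIs (edgeR adjusted p = 0.000338). In chow mice alone the estimate was 4.85, but that fit had chow 11 as the only mouse in the MHC II-high class. It cannot decide whether the call holds on chow. Few cells carried much of the difference. In HFD 1, 3 cells held 64.0% of the 228 Ccl5 UMIs of the MHC II-high class, and without the 3 fullest cells of each class the levels were 207 and 23.4 CPM. In HFD 3 they were 422 and 79.9.

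The other comparisons of classes gave no call for either gene. From Ly6c2-positive to Ly6c2-negative MHC II-high cells, Cxcl9 differed by 0.05 (SE 0.29) and Ccl5 by 0.49 (SE 0.33) on the log2 scale, both with an edgeR adjusted p of 1. In that comparison 0.0341% of genes passed, 0 of them higher, while 411 had an unadjusted p under 0.05 and DESeq2 called 2. From Ly6c2-negative MHC II-high to C1q-high cells, Cxcl9 differed by -0.23 (SE 0.26, edgeR adjusted p = 0.768) and Ccl5 by -0.22 (SE 0.31, edgeR adjusted p = 0.829), where 3.47% of genes passed (2.46% higher and 1.01% lower). The HFD mice went opposite ways in both comparisons for Ccl5, with 2.17 and 0.908 times the level in the first and 0.434 and 1.47 times in the second. Among HFD mice alone the first was called (0.62, adjusted p = 0.00808), although the level was higher in 1 of the 2 mice.

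**Figure D3:**
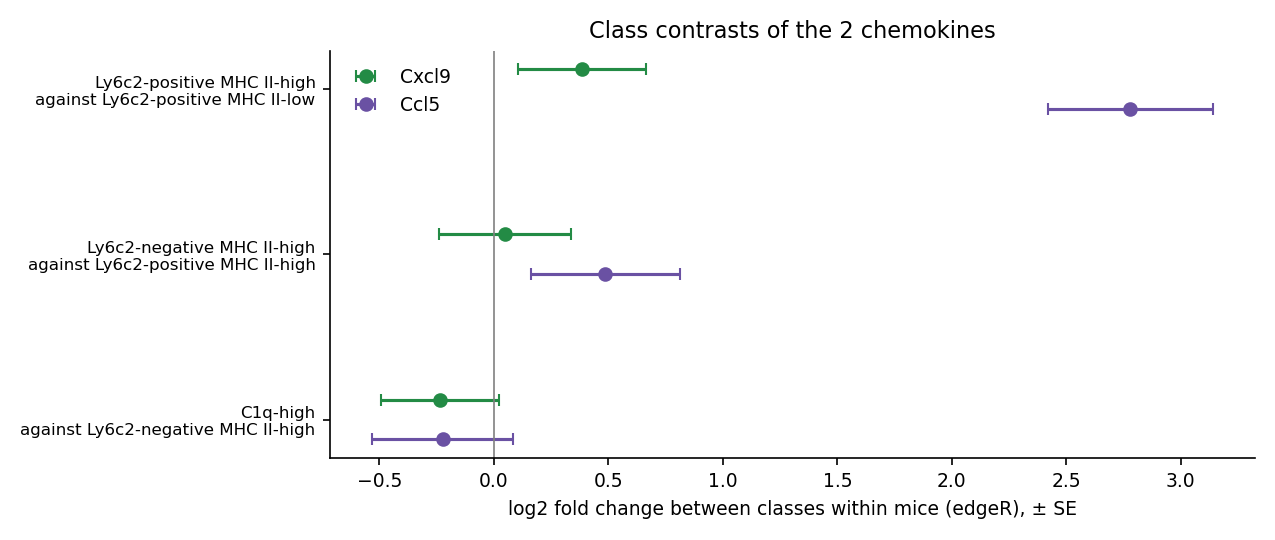
log2 fold change of Cxcl9 and Ccl5 (horizontal axis) in 3 comparisons of classes within mice, with the edgeR estimate as a point and its SE as a bar. The Ccl5 contrast of MHC II-high against MHC II-low among Ly6c2-positive cells stands at 2.78, and the other 5 estimates lie between -0.23 and 0.49.

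The ratio of Ccl5 to Cxcl9 UMIs differed between classes in the HFD mice, without a test. In Ly6c2-positive MHC II-low cells there were 0.0452 Ccl5 UMIs for each Cxcl9 UMI in HFD 1 and 0.176 in HFD 3. Among Ly6c2-positive MHC II-high cells the ratio was 0.726 and 0.608, and among C1q-high cells 0.588 and 0.836. Ly6c2-negative MHC II-high cells had 1.03 in HFD 1 and 0.571 in HFD 3, and Ly6c2-negative MHC II-low cells 0.0909 and 0.550. In chow 11 the ratio was 0.333 (1 UMI against 3) and 0.385 (5 against 13) in the Ly6c2-positive classes and 1.26 in C1q-high cells. In chow 9 it was 2.83 in C1q-high cells (82 against 29).

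The levels were also read in finer bins over all cells. Ccl5 was lower in cells rich in Ly6c2 in both HFD mice. Cells with 0 UMIs of Ly6c2 held 558 and 664 CPM of Ccl5 in HFD 1 and HFD 3, cells with 1 held 710.2 and 598, those with 2 to 3 held 198 and 481, and those with at least 4 held 121 and 356. Cxcl9 moved less along the same bins, from 869 and 799.5 to 671 and 830. Along quartiles of MHC II, Ccl5 of the HFD mice was 53.1 and 367 in the lowest quartile and at least 554 in each of the others. Within C1q-high cells HFD 3 did not follow this order, with 1324 CPM in the lowest quartile (44 cells, 1 of which held 107 of the 179 UMIs) against 671, 657 and 735. HFD 1 held 51.8 in that quartile and 649, 507 and 465 in the others. Within C1q-low cells the lowest quartile held the least Ccl5 in both mice, at 53.2 and 276. Along C1q, both genes of both HFD mice were highest in the second quartile, at 872 and 794.8 for Ccl5 and 1275 and 946 for Cxcl9. In the quartile richest in C1q, HFD 1 held 184 of Ccl5 and 242 of Cxcl9, and HFD 3 held 550.4 and 637. In HFD 1, Cxcl9 thus spanned a wider range along C1q than between the classes.

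**Figure D4:**
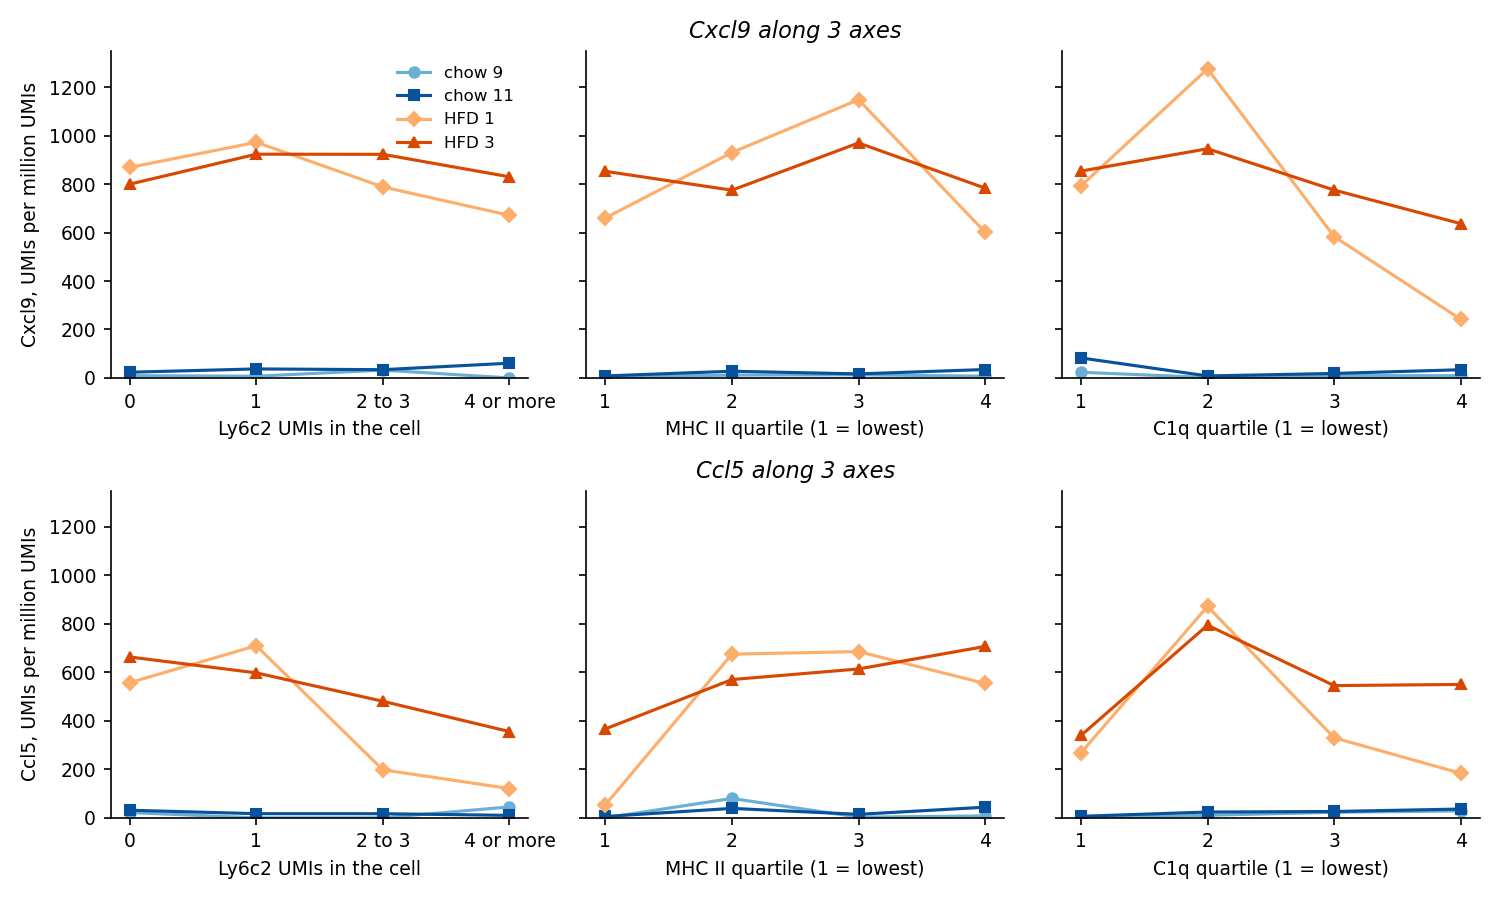
CPM of Cxcl9 and Ccl5 (vertical axes) in bins of Ly6c2 UMIs and in quartiles of MHC II and C1q level over all cells (horizontal axes), with 1 line per mouse. Ccl5 of the HFD mice is lowest at 4 or more Ly6c2 UMIs (121 and 356) and in the lowest MHC II quartile (53.1 and 367). In the HFD mice, but not in the chow mice, both genes peak in the second C1q quartile.

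Cells with Cxcl9 more often had Ccl5 too. Both genes were found in 1 cell of chow 9, 5 of chow 11, 146 of HFD 1 and 328 of HFD 3. After thinning, Ccl5 was found in 30.5% of the cells with Cxcl9 and 13.3% of the others in HFD 1, and in 34.3% and 21.5% in HFD 3. Unthinned shares were 35.9% and 18.2% in HFD 1 and 42.4% and 23.4% in HFD 3. The direction was the same within Ly6c2-positive C1q-low cells (13.5% and 8.93% in HFD 1, 28.8% and 13.8% in HFD 3), within Ly6c2-negative MHC II-high cells (36.0% and 15.9%, 33.3% and 25%) and within C1q-high cells (43.9% and 17.4%, 39.3% and 29.8%). Cells are not replicates, so these shares are a description of 2 mice.

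**Figure D5:**
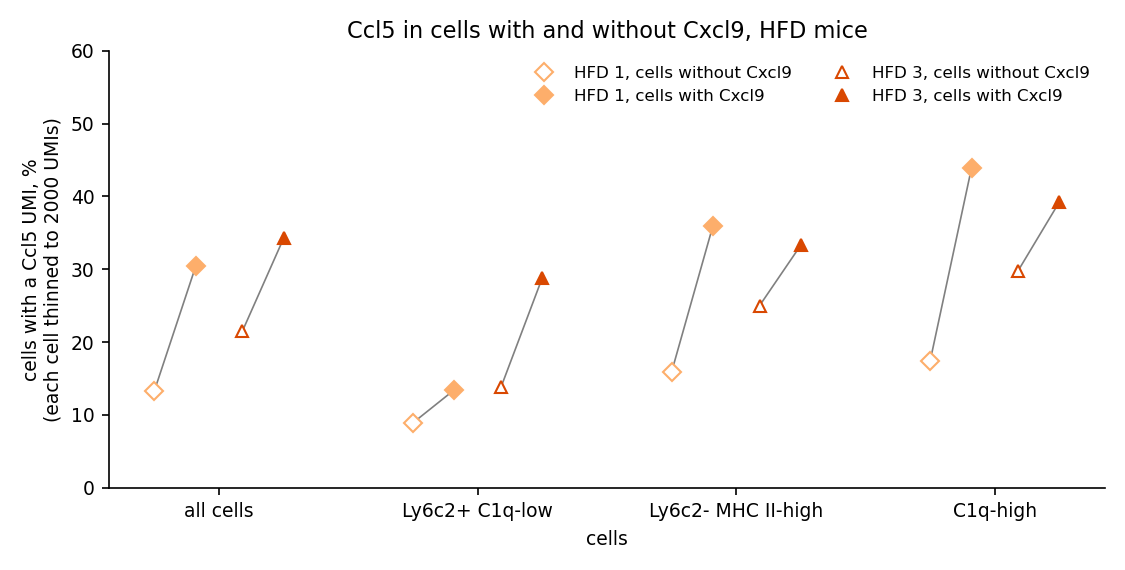
Share of cells with a Ccl5 UMI (vertical axis, %, each cell thinned to 2000 UMIs) among cells with and without Cxcl9, in all cells and in 3 groups of cells of HFD 1 and HFD 3. The share is higher among cells with Cxcl9 in every group of both mice, at 30.5% against 13.3% and 34.3% against 21.5% over all cells.

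Most other chemokines that could be tested over all cells were lower on HFD. Over all cells, 16.2% of 4955 tested genes passed the edgeR test of HFD against chow at an FDR of 1%, 7.67% higher and 8.58% lower. Among the other CC chemokines, Ccl3 fell by 2.24 on the log2 scale (SE 0.17, adjusted p = 0.000385) from 3261 and 3372 to 939.5 and 696 CPM. Ccl4 fell by 1.88 (SE 0.13, adjusted p = 0.000249) from 5405 and 4971 to 1737 and 1537. Ccl8 differed by 1.03 and did not pass (adjusted p = 0.225). In Ly6c2-positive C1q-low cells Ccl3 fell by 1.43 (SE 0.19, adjusted p = 0.000229), while Ccl4 differed by -0.14 and did not pass (adjusted p = 0.859), at 1558 and 813 CPM on chow against 1042 and 1264 on HFD. These cells differed in make-up between diets, since 3 of 69 and 19 of 87 were MHC II-high on chow against 89 of 372 and 316 of 657 on HFD, and the part of this in the diet differences within them was not tested.

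Of 11 tested chemokines other than the members, Ccl3 and Ccl4 among them, 7 fell, 0 rose, and the median log2 difference was -1.63, against -0.0134 over all genes. DESeq2 called 0 higher as well, while 9 of the 11 had an unadjusted p under 0.05. Without the filter on rare genes, 3 of 24 chemokines rose and 8 fell. Pf4, a platelet-type chemokine that resident macrophages also make, fell by 3.58 (SE 0.25, adjusted p = 0.000297), and Cxcl1, which attracts neutrophils, fell by 3.13 (SE 0.15, adjusted p = 0.000123). Within C1q-high cells, where 10.5% of 5065 genes passed (5.35% higher and 5.13% lower), 5 of 11 fell and 1 rose, against 1 and 0 without HFD 3. The gene that rose there was Ccl24, an eosinophil attractant (log2 difference 3.17, SE 0.55, adjusted p = 0.00547), which did not pass over all cells (2.52, adjusted p = 0.0181). The median over the 11 chemokines was -0.85 in C1q-high cells. In Ly6c2-positive C1q-low cells it was -0.44, where 4 of 11 fell, 0 rose and 4 had a difference above 0.

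Receptors for the chemokines were also measured in the producing populations. Ccr1, with 402 and 450.1 CPM on chow and 535 and 479 on HFD, differed by 0.03 on the log2 scale (edgeR adjusted p = 0.875). Cxcr3 was too rare to be tested over all cells, at 17.7, 15.2, 2.35 and 2.51 in chow 9, chow 11, HFD 1 and HFD 3.

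Genes known to be induced by interferon-gamma were mostly higher with HFD. Of 14 tested, 10 rose over all cells, and the median log2 difference was 1.66. Gbp2, a guanylate-binding protein that acts on intracellular microbes, rose by 4.75 (SE 0.20, adjusted p = 0.000123), from 27.4 and 38.5 to 956 and 1146 CPM. Serpina3g, a serine protease inhibitor, rose by 4.58 (SE 0.22, adjusted p = 0.000123), Gbp5 by 3.16 (SE 0.20, adjusted p = 0.000236) and Iigp1 by 3.12 (SE 0.37, adjusted p = 0.00168). Type I interferon effectors rose in 9 of 12 tested, with Zbp1, a nucleic acid sensor, at 3.17 (SE 0.14, adjusted p = 0.000123) and the ubiquitin-like Isg15 at 2.23 (SE 0.20, adjusted p = 0.000777). The part of the changed make-up of the cells in the differences of these lists over all cells was not tested. On chow, Zbp1 stood at 225 and 167 CPM in Ly6c2-positive C1q-low cells and 24.2 and 28.9 in C1q-high cells. Isg15 stood at 85.6 and 178 against 35.3 and 53.6.

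The counts of called genes in these lists depended on which HFD mice were included. Leaving out an HFD mouse left 1 mouse on HFD, so the spread then came from the chow mice alone. A lost call in such a fit does not show that a change was absent. Without HFD 3, 4 of 12 interferon-gamma-induced genes and 3 of 11 type I effectors passed, and without HFD 1, 8 of 14 and 7 of 12. Leaving out HFD 3 lowered the count over all genes from 805 to 119, and leaving out HFD 1 lowered it to 267.

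Among the factors that carry the interferon signal, 4 of 15 rose and 1 fell over all cells. Among those that rose were Irf7 (2.36, SE 0.28, adjusted p = 0.00166), Stat2 (1.17, SE 0.18, adjusted p = 0.00431) and Irf1 (1.04, SE 0.20, adjusted p = 0.00952). The 1 that fell over all cells was Socs3, a feedback inhibitor of cytokine signalling, by 0.82 (SE 0.12, adjusted p = 0.0038), named after its values were seen. Of the NF-kB list 1 of 15 rose (Ikbkb, a kinase of the pathway, 0.76, SE 0.12, adjusted p = 0.00412) and 2 fell, Tnf by 1.42 (SE 0.18, adjusted p = 0.00199) and Tnfaip3, an inhibitor of the pathway, by 1.15 (SE 0.16, adjusted p = 0.00326). Of genes by which antigen-presenting cells engage T cells, the costimulatory receptor Cd40 rose by 1.56 (SE 0.13, adjusted p = 0.000611) and the adhesion molecule Icam1 fell by 1.09 (SE 0.20, adjusted p = 0.00785), with 8 tested. Without HFD 3, 0 genes of these 3 lists passed with edgeR, while 6 of 14, 5 of 15 and 4 of 8 had an unadjusted p under 0.05, and without HFD 1, 2 of 14 interferon factors rose, 2 of 15 NF-kB genes fell and 1 of 8 T cell engagement genes rose.

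At the monocyte end the interferon-gamma-induced genes were also higher with HFD. In Ly6c2-positive C1q-low cells, with their larger share of MHC II-high cells on HFD, and where 1.2% of 4668 genes passed (0.814% higher and 0.386% lower), 9 of 14 rose, among them Gbp5 (4.51, SE 0.59, adjusted p = 0.000229) and Iigp1 (4.12, SE 0.68, adjusted p = 0.00205). Each of these 2 genes had 1 UMI in each chow mouse (4.50 and 3.71 CPM), so the size of its difference is uncertain. Without chow 9 this was 5 of 14, without cells that hold a T or NK cell marker 5 of 14, with DESeq2 5 of 14, and with Ly6c2-positive set at 2 UMIs 1 of 14. Of 15 factors that carry the interferon signal 1 passed there, Irf1, which rose by 2.04 (SE 0.25, adjusted p = 0.000156), and the median of the list was -0.20. Irf7 differed by -0.20 (adjusted p = 0.792) and Stat2 by 0.16 (adjusted p = 0.91), and neither passed. Socs3, which fell over all cells, differed by 0.41 here and did not pass (edgeR adjusted p = 0.334). It stood at 464 and 546 CPM on chow and 801 and 654 on HFD. Tnf stood at 108 and 59.4 on chow and 97.65 and 70.8 on HFD, and Icam1 at 63.05 and 63.1 against 67.05 and 62.3. Tnfaip3 was lower in both HFD mice, at 132 and 111 against 144 and 171. Cd274, which encodes PD-L1, rose by 2.62 (SE 0.50, adjusted p = 0.00756), from 4.50 and 22.3 CPM to 104 and 85.8. Only 1 of 18 type I effectors passed there, Zbp1 (1.38, SE 0.22, adjusted p = 0.00168). In C1q-high cells, 7 of 12 interferon-gamma-induced genes and 5 of 11 type I effectors rose, and without HFD 3, 1 of 10 and 1 of 10. Without HFD 1 these were 2 of 11 and 2 of 11, and without chow 11, 11 of 14 and 5 of 12. Whether the diet effects differed between these populations was not tested.

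The interferon lists did not pass in the comparison in which Ccl5 was higher. Between Ly6c2-positive MHC II-high and MHC II-low cells, 0 of 17 interferon-gamma-induced genes passed with edgeR or DESeq2 (5 and 4 with an unadjusted p under 0.05), with a median of 0.03 against -0.0287 over all genes. Of 19 type I effectors 0 passed with either tool (7 and 2 with an unadjusted p under 0.05). Irf1 was lower in the MHC II-high cells by 1.15 on the log2 scale (SE 0.26, edgeR adjusted p = 0.00138), which was lost without HFD 1 or HFD 3. The chemokines that were higher together with Ccl5 were Ccl22 (3.25, SE 0.70, adjusted p = 0.000868), Ccl17 (2.95, SE 0.49, adjusted p = 6.41e-06), Ccl24 (2.42, SE 0.39, adjusted p = 3.71e-06) and Cxcl16 (1.97, SE 0.20, adjusted p = 1.08e-12), ligands of CCR4, CCR3 and CXCR6, as 4 of 18 tested. The 1 that was lower was Ccl9, by 1.06 on the log2 scale (SE 0.19, adjusted p = 5.23e-05), named after its values were seen. Without HFD 3, 1 of 18 passed, and DESeq2 called 2 higher. In C1q-high against Ly6c2-negative MHC II-high cells, where Ccl5 was not called, the CC chemokines Ccl8, Ccl3 and Ccl4 were higher (Ccl8 by 4.43, SE 0.35, Ccl3 by 2.24, SE 0.18, and Ccl4 by 1.98, SE 0.20, adjusted p from 3.16e-18 to 1.01e-12).

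The genes whose levels were most like those of the members were sought among 4955 genes over 19 sums of a mouse and class. For Cxcl9 they were Nampt (Pearson r = 0.958), Psmb9 (0.926), Gbp2 (0.906), Serpina3g (0.898) and Aig1 (0.891). For Ccl5 they were Slamf8 (0.900), Serpina3g (0.899), AW112010 (0.880), Psmb9 (0.879) and Ly6a (0.865). The 2 members had r = 0.864 with each other. Sums of 1 mouse share a library and the diet sets most of the range, so the r within the 10 HFD sums was computed as well. With Cxcl9 it was -0.489 for Nampt, 0.598 for Psmb9, -0.150 for Gbp2, 0.573 for Serpina3g and -0.215 for Aig1. With Ccl5 it was 0.710 for Slamf8, 0.415 for Serpina3g, 0.858 for AW112010, 0.539 for Psmb9 and 0.836 for Ly6a, and it was 0.803 between the members.

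T cells and NK cells make CCL5 themselves, so their markers were followed. The list of 21 measured markers stood at 36.5 and 39.9 CPM on chow and 159 and 228 on HFD, so it moved with the diet. Klrk1 and Klrd1, which myeloid cells can also carry, made up 75.7%, 60.9%, 90.8% and 80.9% of its UMIs. The CD3 and T cell receptor genes gave 16, 41, 26 and 133 UMIs, in 13, 27, 23 and 63 cells. Without these cells, Ccl5 stood at 21.8 and 29.5 CPM on chow and 419 and 512 on HFD. Without every cell that held any marker of the list, Ccl5 stood at 24.0, 27.9, 409 and 562, and Cxcl9 at 9.08, 22.4, 639.6 and 733. Of the cells with at least 10 Ccl5 UMIs, 2 of 40 in HFD 1 and 9 of 82 in HFD 3 held a CD3 or T cell receptor UMI. Over all cells these were 23 of 966 and 63 of 1548. Any marker of the list was held by 15 of the 40 and 32 of the 82, against 24.4% and 30.6% of the cells without Ccl5. The Ccl5 contrast between Ly6c2-positive MHC II-high and MHC II-low cells was 3.46 on the log2 scale (SE 0.32) in cells without any of these markers. Ifng had 0, 0, 0 and 1 UMIs.

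Other cell types were followed in the same way. The dendritic cell list stood at 97.9 and 101 CPM on chow and 275 and 269 on HFD. It stood at 405 CPM in cells with Ccl5 and 221 in the others in HFD 1, but at 241 and 287 in HFD 3, and 16 of 40 and 30 of 82 cells with at least 10 Ccl5 UMIs held a marker of it. One of its 9 genes is Ccl22, which was higher together with Ccl5 in the MHC II-high cells. The part of this list in the chemokine levels was not tested. The B and plasma cell list came largely from few cells, since 1 cell held 88.0% of its UMIs in HFD 1 and 1 held 80.6% in HFD 3. Without the 5, 13, 1 and 1 cells with at least 100 UMIs of that list, Ccl5 stood at 20.03, 30.1, 436 and 546 CPM and Cxcl9 at 9.49, 25.6, 832 and 852. Neutrophil markers stood at 32.1 and 36.9 on chow and 68.2 and 44.1 on HFD. Epithelial markers stood at 2.61, 15.9, 25.9 and 159, where 1 cell of HFD 3 held 63.8% of them.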

How the data were processed

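Colonic monocytes and macrophages of 4 mice (2 on chow, 2 on HFD) were analysed from 1 matrix of raw UMI counts. The authors deposited these counts after pseudo-alignment with kallisto 0.46.0 and BUStools 0.39.2 (Ensembl 97, mm10), removal of poor cells and rare genes, and removal of cells that SingleR did not annotate as macrophages or monocytes. A filter of that kind can drop rare chemokines.

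Counts were summed per mouse, or per mouse and class, and tested with edgeR 4.0.16 (R 4.3.3, quasi-likelihood, TMM, FDR 1%). The SE is the absolute log2 fold change over the square root of F. Diet fits kept genes above 1 CPM in at least 2 sums and in at least 5% of cells, and class fits kept genes above 1 in at least 4 sums and in at least 1% of cells, with at least 10 cells per sum. C1q and MHC II thresholds were set by Otsu's method. The fits were tested on simulated data. Of simulated 2-fold changes, 68% were recovered in the diet fit over all cells and 40% in MHC II-high against MHC II-low. At 4-fold these were 100% and 94%. A missing call therefore does not show that a 2-fold change was absent. DESeq2 1.42.0, the likelihood-ratio test, other filters and thresholds, other depths of thinning, removal of Scrublet doublets and leaving out each mouse were alternatives.

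The members and gene lists were chosen with earlier results of these data known. Named genes are the members, their 5 most alike genes, the receptors, and up to 4 called genes per list and comparison by size of change. Some genes that this rule names are not reported here. Promoters came from RefSeq, in which 2 of the 3 symbols matched, and Ccl5 did not.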

Additional observations from a re-analysis of the deposited data

How the results depend on the processing

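With 2 mice per diet and few chow cells outside the C1q-high class, the diet counts and the chow class levels are the least certain. Over the alternatives run, the diet differences of both chemokines moved by less than 1 SD between mice, and leaving out 1 mouse gave 5.05 to 6.48 for Cxcl9 and 4.03 to 4.52 for Ccl5 on the log2 scale. The fits without cells that hold a T or NK marker UMI were chosen after seeing the data. No paired analysis was possible because the diets share no replicate numbers. The alternatives for Cxcl10 were not run.

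Counts of called genes changed most. Over all cells (805) the likelihood-ratio test gave 1307, no filter 1218, and leaving out a mouse 119 (without HFD 3) to 811. In Ly6c2-positive C1q-low cells (56) these were 148, 171 and 44 to 78, with 3 at 2 or more Ly6c2 UMIs and 19 without T or NK marker cells. In C1q-high cells (531) they were 926, 912 and 15 (without HFD 3) to 762. MHC II-high against MHC II-low (223) gave 437 in HFD mice, 39 in chow mice and 83 to 248 without a mouse. Ly6c2-negative against Ly6c2-positive (3) gave 5 with the likelihood-ratio test, 14 with no filter, 5 at 2 or more Ly6c2 UMIs, 8 with lower and 5 with higher thresholds, 40 in HFD mice, 6 in chow mice, 5 without T or NK marker cells and 4 to 12 without a mouse. C1q-high against Ly6c2-negative MHC II-high (306) gave 229 to 277 without a mouse.

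Ccl5 in MHC II-high against MHC II-low lost its call with DESeq2 (3.64, adjusted p = 0.0225), and ranged from 2.13 to 4.32 without a mouse. In chow mice the estimate was 4.85. That fit had chow 11 as the only mouse in the MHC II-high class, so it cannot decide whether the call holds on chow. Of the 15 alternatives, 13 passed 1%, DESeq2 did not, and the fit in chow mice is not counted. The lowest edgeR adjusted p was 8.38e-52, in HFD mice. That fit held 2 mice, with ratios of 18.2 and 3.63. Its spread was estimated over all classes, so this p does not measure how far the contrast differed between the mice. Of the 5 contrasts that were not called, 3 turned around. Cxcl9 in Ly6c2-negative against Ly6c2-positive cells was -0.88 with DESeq2, -0.31 at 2 or more Ly6c2 UMIs, -0.019 with lower thresholds, -2.24 in chow mice, -0.47 without T or NK marker cells and -0.57 (without HFD 1) to 0.36 without a mouse, with -0.0020 without HFD 3. Ccl5 in the same contrast was -0.49 with DESeq2, -9.29 in chow mice, -0.50 (without HFD 1) to 0.65 without a mouse, and 0.62 in HFD mice, where it was called. Ccl5 in C1q-high against Ly6c2-negative MHC II-high cells was 0.50 with DESeq2, 0.18 with lower thresholds, 8.19 in chow mice and -0.55 to 0.96 (without HFD 1). The cause of these turns was not tested.

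Shares depend on depth and on the UMIs asked for. The mean Cxcl9 share on chow was 2.88% with no thinning, 2.19% when thinned to 2500 UMIs, 0.488% at 2 or more UMIs and 1.51 to 1.88% without a mouse. On HFD it was 46.0%, 25.5% at 2 or more UMIs and 34.3 to 42.9%. For Ccl5 it was 2.75%, 0.834% and 1.13 to 2.37% on chow, and 29.3%, 12.5% and 19.2 to 27.0% on HFD.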

Other observations

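Ccl17 and Ccl22, ligands of CCR4, were in too few cells to be tested between diets over all cells, and they are named here after their values were seen. Ccl17 stood at 3.39 and 2.14 CPM in chow 9 and chow 11 and at 63.0 and 96.0 in HFD 1 and HFD 3. Ccl22 stood at 3.65, 6.79, 17.3 and 24.2. Both HFD mice were above both chow mice for each gene, and the share of all genes for which this held is not given here. This was the direction of Cxcl9 and Ccl5 and not that of Ccl3 and Ccl4.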
